A study of Mus musculus with 40 samples.

Results

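Ccng1, the mouse gene for cyclin G1, was followed across the 3 array probes that carry it alone. The members were all rows of both value tables whose probe maps to the single symbol Ccng1. They are probes 5943 and 4304 on array design 1, which holds 7680 probes, and probe 6776 on array design 2, which holds 7599. Ccng1 is thus 1 of 6970 genes with a single symbol on the arrays. It was chosen by its ratios in these same data, which were the largest of both designs, so its size and direction are a description and carry no test.

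Each array set RNA of mouse embryos cultured for 5 h at 37 °C with 40 µM 4-hydroperoxycyclophosphamide (4CP) in one channel against RNA of untreated embryos cultured at 37 °C in the other. 4CP is a pre-activated analogue of cyclophosphamide, a drug that alkylates DNA. There were 20 arrays per design. Each of 5 replicates had a slide for either dye orientation, and every slide was read as a B and a plain readout, named after a mark in the titles. The labels do not explain the mark, and they state no age or strain of the embryos and no number of embryos per pool. Only the labels tell the replicates apart, and the spread between them may be technical. No channel intensities were used, so the labelled source could not be checked by the level of marker genes.

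All values are log2 ratios of treated over control after the median of each array was set to 0. The labels state neither the numerator of the deposited ratio nor the base of its logarithm. Channel 1 was taken here as the numerator, a choice made with the higher values of p53 targets, among them Ccng1, in view. The direction of Ccng1 and of the p53 genes is therefore no finding of its own, and no independent value settles it. Folds assume base 2. With the sign turned the means of the 3 probes would be −2.90, −2.41 and −1.39, at the lowest ranks of their designs. Arrays of one orientation did not all resemble each other over all probes. Of 80 pairs of arrays from different slides in the same orientation on each design, 1 pair on array design 1 and 5 pairs on array design 2 had a Pearson r under −0.3, down to −0.31 and −0.54. The median r was 0.47 and 0.31. These r were taken before turning. Between arrays of opposite orientation, where the treatment part changes sign, the median r was still above 0, at 0.35 and 0.22. Only 18 and 35 of 100 such pairs had an r under 0. The direction of an array is thus not settled by its overall profile. For Ccng1 the centred ratio lay above 0 on all 10 arrays of each probe with treated embryos in channel 1, and on 0 of the arrays with treated embryos in channel 2. Since RNA of embryos was measured in bulk, more cells of a type and more RNA per cell cannot be told apart.

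Cyclin G1 is an unusual cyclin, known for being a direct transcriptional target of the tumour suppressor p53 and not for driving a stage of the cell cycle. DNA damage stabilises p53, which binds response elements near its target genes, built from adjoining copies of a short motif. In mouse and human cells cyclin G1 binds B' regulatory subunits of the phosphatase PP2A and the ubiquitin ligase Mdm2, itself a p53 target that restrains p53.

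The 250 bases before the RefSeq start of Ccng1 that the promoter table uses, base 40755286, are shown because the p53 motif lies in them. The gene (gene ID 12450, protein coding) lies on chromosome 11 from 40748552 to 40755309 in GRCm38.p6, and the window is chr11:40755287-40755536 on the minus strand, from RefSeq. The outer end of the gene as annotated lies further out than that start, so the last 23 bases of the window are inside the gene. Capitals mark 2 adjoining p53 motifs of 10 bases, the usual unit of a response element.
Ccng1: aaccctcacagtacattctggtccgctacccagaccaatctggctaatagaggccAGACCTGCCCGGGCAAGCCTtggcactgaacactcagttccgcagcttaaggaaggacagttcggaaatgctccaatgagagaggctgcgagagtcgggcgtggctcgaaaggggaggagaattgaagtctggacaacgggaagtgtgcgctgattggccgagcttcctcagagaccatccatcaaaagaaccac
The pair spans the bases from 195 to 176 before base 40755286. The first motif has 1 mismatch to the p53 consensus and the second has 0. The consensus is its own reverse complement, so one search covers both strands.

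An exact motif stood in 2745 of 32851 RefSeq promoters of 300 bases (250 before and 50 after the start), or 8.36%. A pair with at most 1 mismatch stood in 29 of them, or 0.0883%. Of the 22 measured genes of the p53 pathway list described further on, 18 had a promoter in the table, 8 of these held an exact motif (44.4%), and 2 held a pair (11.1%). Counted the same way, per gene, 2582 of 27025 genes held an exact motif (9.55%) and 29 a pair (0.107%). Those 2, Rps27l and Gtse1, are shown with Ccng1 for comparison, and Mdm2 and Ppm1d with their single motifs, each with 5 bases on either side and the sites in capitals.
Ccng1 pair: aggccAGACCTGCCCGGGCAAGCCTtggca
Rps27l pair: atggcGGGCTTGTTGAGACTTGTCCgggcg
Gtse1 pair: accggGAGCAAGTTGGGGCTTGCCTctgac
Mdm2 motif: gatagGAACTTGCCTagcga
Ppm1d motif: ggggcGAGCTTGCTCttctt
The Rps27l pair begins 117 bases before its start and the Gtse1 pair 1 base before it, while the Mdm2 and Ppm1d motifs begin 186 and 132 bases before theirs. A match is a description of the letters in the window and not a site at which binding was measured. The list genes shown all passed as higher in the tests given further on. Of the list, Aen, Ckap2, Abhd4 and Sesn1 also held an exact motif. Aen, and Ckap2 and Abhd4 on array design 2, passed as higher. Sesn1 averaged −0.03 ± 0.15 (SD, n = 5, limma adjusted p = 0.726) and the Abhd4 probe on array design 1 −0.11, and neither passed.

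Probe 5943 gave the highest values of Ccng1. Its replicate values, the mean of both orientations, were 2.77, 2.17, 3.20, 3.01 and 3.34 for replicates 1 to 5, with a mean of 2.90 ± 0.46 (SD, n = 5), or 7.44-fold. All 5 replicates lay far above 0, with replicate 2 the lowest. Over the 19 arrays that measured it the ratio ranged from 1.86 (3.62-fold) to 4.31 (19.9-fold), and it was above 0 on 19 of 19.

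Probe 4304 followed the same replicates at a lower level. Its replicate values were 2.57, 1.88, 2.69, 2.38 and 2.51, with a mean of 2.41 ± 0.31 (SD, n = 5), or 5.30-fold. Replicate 2 was again the lowest. The highest was replicate 3, whereas on probe 5943 it was replicate 5. Single arrays ranged from 1.55 (2.93-fold) to 3.55 (11.7-fold), with 19 of 19 above 0.

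Probe 6776, on the other array design, gave smaller and more scattered values. Its replicate values were 1.46, 1.09, 1.03, 1.33 and 2.02, with a mean of 1.39 ± 0.40 (SD, n = 5), or 2.61-fold. Replicate 5 stood highest and replicates 2 and 3 lowest. Single arrays ranged from 0.17 (1.12-fold) to 2.95 (7.74-fold), and 20 of 20 were above 0. The labels do not say whether equal replicate numbers on the 2 designs mark the same RNA, so the designs were not compared by a test.

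**Figure D1:**
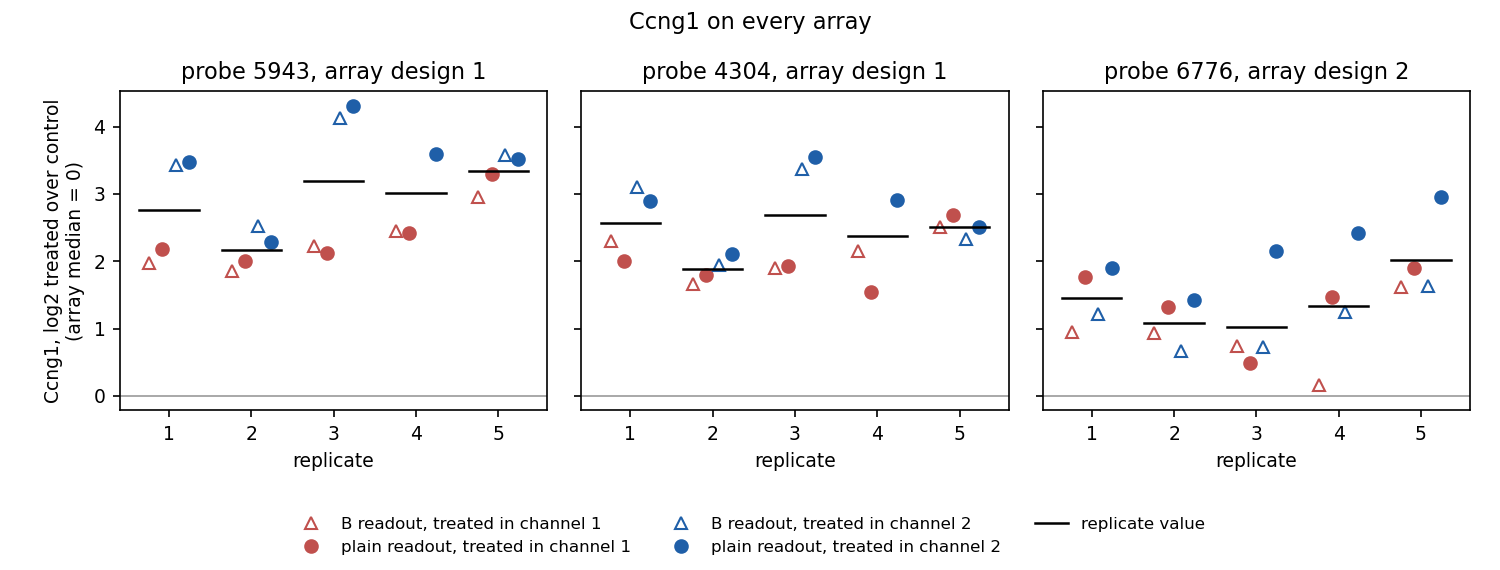
Log2 ratio of treated over control embryos for each Ccng1 probe (array median at 0) on every array, by replicate. Triangles are B readouts, filled circles plain readouts, red and blue the arrays with treated embryos in channel 1 and channel 2, and black lines the replicate values, which run from 2.17 to 3.34 for probe 5943, from 1.88 to 2.69 for probe 4304 and from 1.03 to 2.02 for probe 6776.

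Set against all probes of its design, Ccng1 held the top ranks by mean ratio, as its choice implies. Probes 5943 and 4304 ranked 1 and 2 of 7680, ahead of an unnamed probe at 1.35 and of Btg2, an antiproliferative p53 target, at 1.08. The Btg2 mean includes a B readout of replicate 4 that misses 786 of 7680 values. Probe 6776 ranked 1 of 7599, ahead of Cd81, a tetraspanin, at 0.93 and Ckap2, a spindle-associated protein, at 0.74. The level that 1 in 1000 probes exceeded was 0.84 on array design 1 and 0.69 on array design 2.

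The ranking on single arrays differed between the probes. Probe 5943 ranked first on 14 of 19 arrays and never below rank 16. Probe 4304 was within the top 10 on 19 of 19 arrays, with rank 9 as its lowest. Probe 6776 was within the top 10 on 8 of 20 arrays and ranked as low as 2230 on one array (replicate 4, B readout, treated embryos in channel 1), where its ratio was 0.17.

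**Figure D2:**
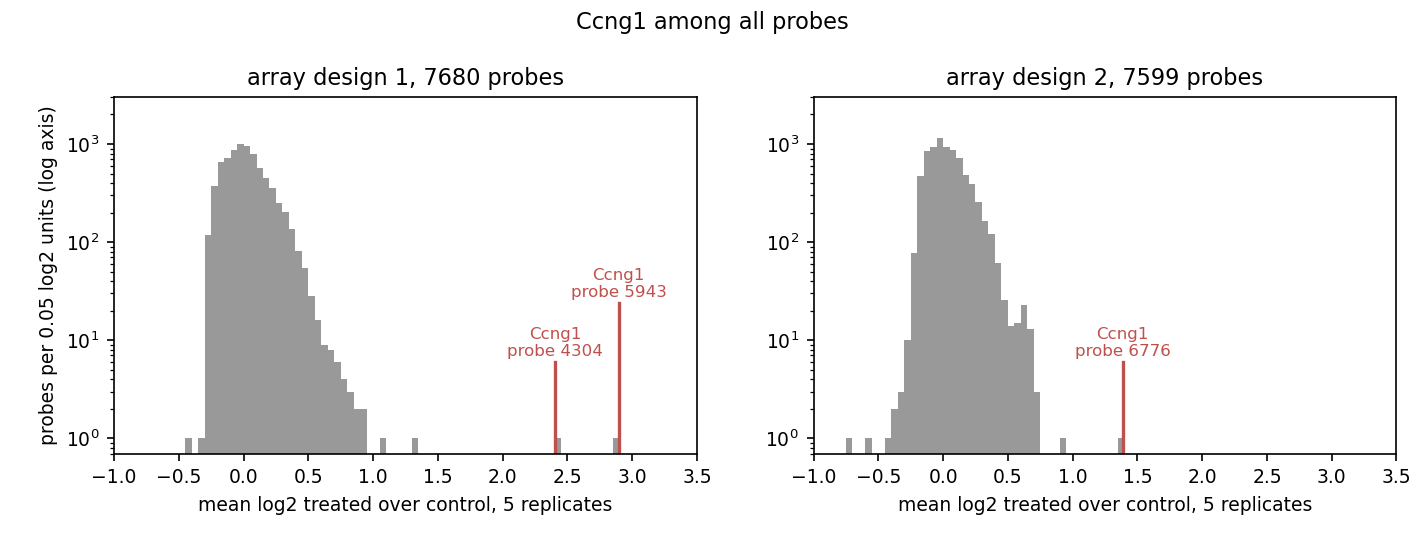
Histograms of the mean log2 ratio of treated over control embryos of all probes (5 replicates, bins of 0.05, log axis for the number of probes), for array design 1 (left) and array design 2 (right). Red lines mark the Ccng1 probes at 2.90, 2.41 and 1.39, beyond the levels of 0.84 and 0.69 that 1 in 1000 probes exceeded.

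A ratio above 0 on every measured array was rare among all probes. It was found for 9 of 7680 probes on array design 1 (0.117%) and 10 of 7599 on array design 2 (0.132%). Those of array design 1 were both Ccng1 probes, both Mdm2 probes, Aen, a nuclease of apoptosis, Dnajc9, a histone chaperone, and 3 unnamed probes. The probes of array design 2 were Ccng1, Cd81, Ckap2, Abhd4, a lipid hydrolase, Bloc1s2, a subunit of a complex of lysosome-related organelles, Gtse1, a microtubule-associated regulator of p53, Msh6, a mismatch repair protein, Ppm1d, a phosphatase that acts on the p53 pathway, Aen and 1 unnamed probe. These names were picked after their values were seen.

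The 2 probes on array design 1 were read on the same slides, and probe 5943 gave the larger ratio. The difference, 5943 minus 4304, was 0.19, 0.29, 0.51, 0.63 and 0.83 in replicates 1 to 5, with a mean of 0.49 ± 0.26 (SD, n = 5), and was above 0 in 5 of 5 replicates. An exact two-sided sign-flip permutation test gave p = 0.0625, the smallest p that 5 replicates allow, so this test cannot reach the threshold of 0.05 with 5 replicates. On single arrays probe 5943 was the higher on 18 of 19. Across these 19 arrays, which share slides and replicates, the turned ratios of the 2 probes had a Pearson r of 0.90 and a Spearman rho of 0.83, given as a description. The position of the probes within the transcript was not analysed here.

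The size of the Ccng1 ratio differed with the dye orientation. With treated embryos in channel 2 and in channel 1, probe 5943 averaged 3.44 ± 0.66 and 2.35 ± 0.47 (SD, n = 5 each). Probe 4304 averaged 2.76 ± 0.55 and 2.05 ± 0.34, and probe 6776 averaged 1.63 ± 0.46 and 1.14 ± 0.45. Channel 2 gave the larger ratio in 5 of 5 replicates for probe 5943 and in 4 of 5 for each of the other probes.

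This was tested on the dye part, the mean of both orientations before turning. The treatment contrast does not enter it if the dye effect adds to the log ratio. A dye effect that grows with the size of the ratio was not tested, and Ccng1 was chosen for large ratios. The dye part of probe 5943 was −0.68, −0.24, −1.02, −0.58 and −0.21 in replicates 1 to 5, all below 0. Its mean was −0.55 ± 0.34 (SD, n = 5, 95% interval −0.84 to −0.26, limma adjusted p = 0.0181). The dye part of probe 4304 was −0.36 ± 0.33 (limma adjusted p = 0.0915) and that of probe 6776 −0.25 ± 0.22 (limma adjusted p = 0.286), neither past the threshold. On array design 1, 16.2% of all probes passed this test (1243 of 7680), 14% with a positive and 2.14% with a negative dye part. Of the probes of array design 2, 0% passed by limma after adjustment, with 1431 probes at an unadjusted p under 0.05. The call of probe 5943 ended without replicate 1 (limma adjusted p = 0.0714), without replicate 3 (0.0571), with plain readouts only (0.0585) and without centring (0.19).

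On average the 2 readouts of a slide differed little for Ccng1 on array design 1, although single slides differed more. B minus plain averaged −0.06 ± 0.09 for probe 5943 (limma adjusted p = 0.883, 95% interval −0.34 to 0.22) and −0.05 ± 0.20 for probe 4304 (limma adjusted p = 0.914, 95% interval −0.36 to 0.26), over the 4 replicates with both readouts in both orientations (SD, n = 4 each). Replicate 4 was left out of these means because its B readout with treated embryos in channel 2, which misses 786 of 7680 values, has none for either Ccng1 probe. The ratio of that orientation rests on the plain readout alone. The other slide of replicate 4, with treated embryos in channel 1, had B and plain ratios of 2.15 and 1.55 for probe 4304, further apart than those of 98.8% of all probes there, and of 2.45 and 2.42 for probe 5943.

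The readouts did differ for Ccng1 on array design 2. With treated embryos in channel 1, the B and plain ratios of probe 6776 were 0.95 and 1.77 in replicate 1, 0.93 and 1.32 in replicate 2, 0.74 and 0.49 in replicate 3, 0.17 and 1.48 in replicate 4, and 1.62 and 1.89 in replicate 5. With treated embryos in channel 2, they were 1.21 and 1.90, 0.67 and 1.43, 0.73 and 2.15, 1.25 and 2.42, and 1.63 and 2.95. B was the lower readout on 9 of 10 slides, the exception being replicate 3 with treated embryos in channel 1. Per replicate the B ratios averaged 0.99 ± 0.38 and the plain ratios 1.78 ± 0.45 (SD, n = 5 each).

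B minus plain was −0.75, −0.58, −0.58, −1.24 and −0.80 in replicates 1 to 5, below 0 in 5 of 5. The mean of −0.79 ± 0.27 (SD, n = 5, 95% interval ending at −0.58) was the largest in size of 7599 probes. The next lowest probe stood at −0.76, the one after it at −0.54, and the highest at 0.43, while the 95th percentile of the size over all probes was 0.14. After adjustment over all probes the difference did not pass (limma adjusted p = 0.175, unadjusted p = 2.3e-05). By limma 0% of probes passed on either design, with 291 of 7599 at an unadjusted p under 0.05 on array design 2 and 19 of 7680 on array design 1.

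Other probes with large ratios on array design 2 shifted less between their readouts. Cd81 averaged 1.01 in the B and 0.85 in the plain readouts, Ckap2 0.75 and 0.72, and Ddias, a suppressor of apoptosis after DNA damage, 0.60 and 0.77. In the B readouts Ccng1 ranked second, behind Cd81, and in the plain readouts first. The plain mean of probe 6776 still lay below the plain means of probes 5943 and 4304, which were 2.92 and 2.40.

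**Figure D3:**
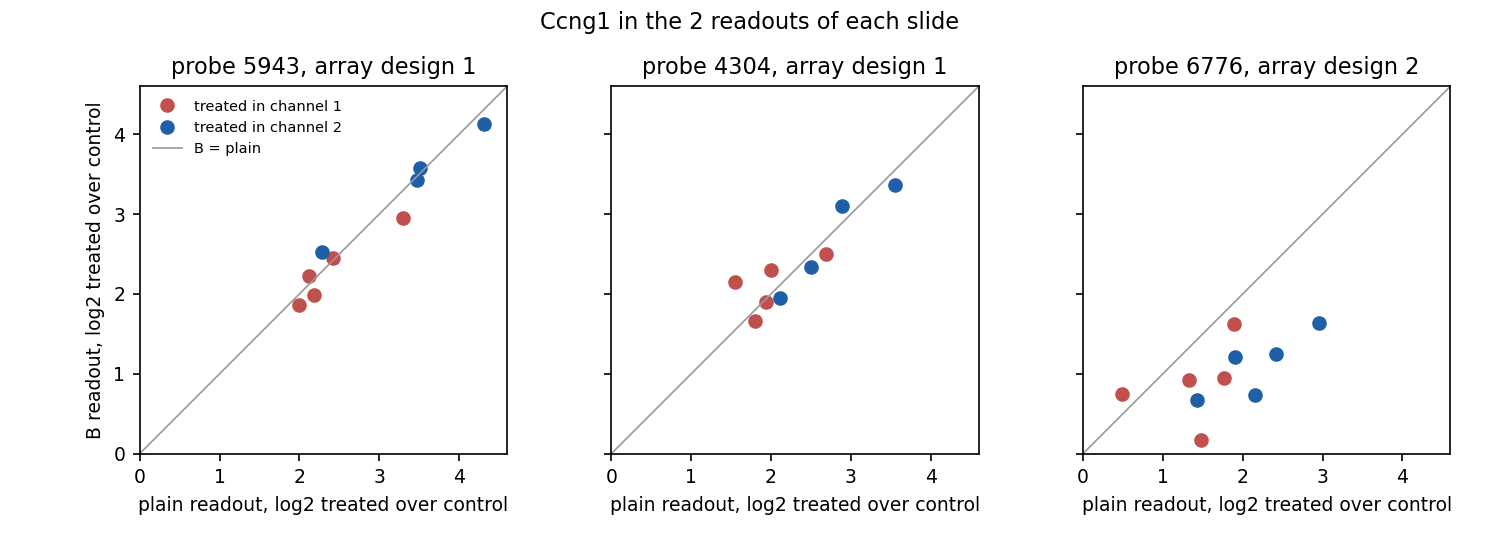
Log2 ratio of treated over control embryos in the B readout (vertical) against the plain readout (horizontal) of the same slide for each Ccng1 probe, in red and blue for treated embryos in channel 1 and channel 2. The grey line marks equal readouts. Points of probes 5943 and 4304 scatter about it, and 9 of 10 slides of probe 6776 lie below it.

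The slides carry numbers from a 3000 and a 2000 series, which hold different replicates. In series 3000 probe 5943 averaged 3.18 ± 0.16 (SD, n = 3), against 2.47 ± 0.42 (SD, n = 2) in series 2000, a difference of 0.72 (95% interval 0.26 to 1.17, limma adjusted p = 0.999). Probe 4304 averaged 2.53 ± 0.15 (SD, n = 3) in series 3000 and 2.23 ± 0.49 (SD, n = 2) in series 2000, a difference of 0.30 (limma adjusted p = 0.999). Probe 6776 averaged 1.68 ± 0.49 (SD, n = 2) in series 3000 and 1.19 ± 0.23 (SD, n = 3) in series 2000, a difference of 0.49 (95% interval 0.18 to 0.79, limma adjusted p = 0.237).

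None of the 3 differences passed by limma. The mean of series 3000 was the higher for each probe with all replicates, but for probe 4304 the difference was −0.045 without replicate 2 and 0.65 without replicate 1. That of probe 5943 ran from 0.42 without replicate 2 to 1.02 without replicate 1, and that of probe 6776 was 0.14 without replicate 5. The values of the 2 series overlapped for probes 4304 and 6776 and did not overlap for probe 5943. Over all probes 0% passed on either design, with 142 probes at an unadjusted p under 0.05 on array design 1 and 719 on array design 2. For probe 6776 the difference was 0.83 without replicate 4 (limma adjusted p = 0.0159), and for probe 5943 it was 1.56 with arrays scaled to one spread (limma adjusted p = 0.031).

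The probes whose ratios followed Ccng1 most closely were found by the Pearson r of the centred, unturned ratios with the mean of the Ccng1 probes of a design. The arrays share slides, replicates and orientations, and unturned ratios change sign with the orientation, so r is only a description. They were, over the 19 arrays of array design 1, Aen at 0.97, Mdm2 (probe 6074) at 0.94, Dnajc9 at 0.91, Carhsp1, an RNA-binding protein, at 0.91 and Hmox1, the heme oxygenase induced by stress, at 0.91. Over the 20 arrays of array design 2 they were Nfe2l2, the transcription factor NRF2, at 0.92, Aen at 0.91, Bloc1s2 at 0.91, Ppm1d at 0.90 and Ddias at 0.89. The median r over all probes with a single symbol was 0.07 and 0.08, and the 99th percentile over all probes 0.78 and 0.73.

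Their ratios were smaller than that of Ccng1, as its choice for the largest ratios implies. The means on array design 1 were 0.75 ± 0.12 for Aen, 0.91 ± 0.41 for Mdm2, 0.90 ± 0.16 for Dnajc9, 0.55 ± 0.22 for Carhsp1 and 0.47 ± 0.24 for Hmox1 (SD, n = 5 each). The means on array design 2 were 0.48 ± 0.16 for Nfe2l2, 0.32 ± 0.08 for Aen, 0.56 ± 0.17 for Bloc1s2, 0.34 ± 0.09 for Ppm1d and 0.68 ± 0.31 for Ddias (SD, n = 5 each).

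Some genes of the p53 pathway other than Ccng1 passed as higher and 0 passed as lower, in a direction that the choice of numerator fixes. The list was drawn up with earlier results of these data known, so its counts and medians beside those of all probes are a description. On array design 1, 4 of the 15 measured probes of the list passed as higher and 0 as lower, and with the sign turned these counts would be 0 and 4. Of all probes 0.651% passed (50 of 7680), 0.638% as higher (49) and 0.013% as lower. The median over the 11 measured genes was 0.14, against 0.02 over 3838 genes. Aen rose by 0.75 ± 0.12 (limma adjusted p = 0.00215) and Rps27l, a ribosomal-protein-like p53 target, by 0.79 ± 0.25 (0.0196). Mdm2 rose by 0.89 ± 0.31 on probe 15 (0.0196) and 0.91 ± 0.41 on probe 6074 (0.0382), all as SD with n = 5. Tigar, a p53-induced regulator of glycolysis, lay below 0 in 5 of 5 replicates on both of its probes, at −0.17 ± 0.08 on probe 5705 (95% interval −0.29 to −0.05, limma adjusted p = 0.0647) and −0.15 ± 0.07 on probe 3612 (−0.26 to −0.03, 0.0883), and did not pass.

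The 2 Mdm2 probes shared their low replicates. Probe 15 had 0.56, 0.64, 0.92, 1.34 and 1.01 in replicates 1 to 5, and probe 6074 had 0.50, 0.48, 1.32, 0.95 and 1.28. Replicates 1 and 2 were the lowest on both, and the highest was replicate 4 on probe 15 and replicate 3 on probe 6074. Btg2 averaged 1.08 ± 0.78 and did not pass (limma adjusted p = 0.0516), with replicate values of 0.89, 0.57, 1.20, 2.36 and 0.39. Btg2 and Mdm2 probe 15 were measured on all 20 arrays, so their high replicate 4 values include the readout that misses 786 values. The ratios of that readout had an SD of 1.13 over all spots. B minus plain had an SD of 1.51 for Btg2 and 0.72 for Mdm2 probe 15 (n = 5 each). Leaving out single replicates moved the count of 4 to between 1 and 5. It was 1 without replicate 1 or replicate 3, 2 without replicate 5 and 0 with B readouts only or series 3000 only. With only probes that have a value on every array it was 0, as was the count of all probes. Of the 4, Aen, Rps27l and Mdm2 probe 6074 have no value in the readout that misses 786 values. With treated embryos in channel 2 only, 3 probes of the list passed as higher and 3 as lower, and with channel 1 only 7 passed as higher and 1 as lower. Without centring 5 passed as higher and 5 as lower. Without the readout that misses 786 values, 6 of the list passed as higher, and so did 781 of all 7680 probes (10.2%).

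On array design 2, 10 of the 16 measured probes of the list passed as higher and 0 as lower, and with the sign turned these counts would be 0 and 10. Since the list was drawn up with earlier results of these data known, its counts and median are no independent test of the pathway. Of all probes 27.8% passed (2114 of 7599), 19.8% as higher (1501) and 8.07% as lower. The median over the 14 measured genes was 0.28, against 0.03 over 4075 genes. Ckap2 rose by 0.74 ± 0.11 (limma adjusted p = 1.25e-08), Ddias by 0.68 ± 0.31 (1.57e-06), Abhd4 by 0.58 ± 0.17 (5.8e-07) and Gtse1 by 0.56 ± 0.20 (1.57e-06). Ercc5, a nuclease of nucleotide excision repair, rose by 0.36 ± 0.19 and Ppm1d by 0.34 ± 0.09. Aen rose by 0.32 ± 0.08 (SD, n = 5 each). Pidd1, the scaffold of the PIDDosome, passed at 0.25 ± 0.14 (SD, n = 5, limma adjusted p = 0.00282), but not in the fit of single arrays with the replicate block (0.0507), and it averaged −0.45 with treated embryos in channel 2 only and 0.95 with channel 1 only. With treated embryos in channel 1 only, 5 probes of the list passed as higher and 1 as lower, and with channel 2 only 3 passed as higher.

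The lists name genes, not directions, and their genes did not always move alike between probes. The Abhd4 probe on array design 1 averaged −0.11 ± 0.22 (limma adjusted p = 0.39). Pidd1 was above 0 on 10 of 20 arrays, all 10 with treated embryos in channel 1. Every ratio here is set against the median of its array. Without centring the median probe shifted by −0.24 on array design 1 and −0.43 on array design 2, the Ccng1 means became 2.58 (5943), 2.09 (4304) and 0.96 (6776), and of the list on array design 2, 2 probes passed as higher and 6 as lower. The means of Ppm1d, Aen, Ercc5 and Pidd1 there were then −0.085, −0.11, −0.074 and −0.18.

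**Figure D4:**
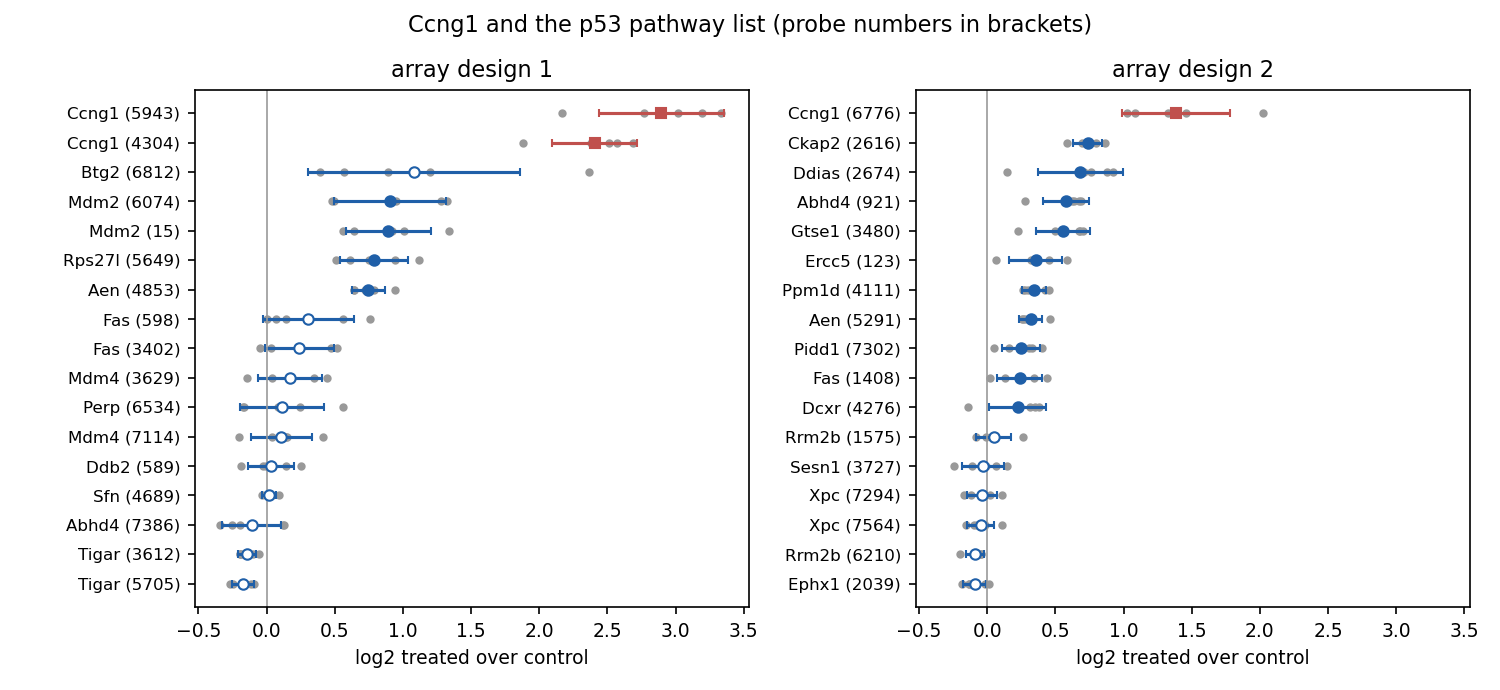
Mean log2 ratio of treated over control embryos with SD bars (n = 5 replicates, grey points) for the Ccng1 probes (red squares) and the measured probes of the p53 pathway list (circles, filled where the limma adjusted p was at most 0.05), for array design 1 (left) and array design 2 (right). Of the list, 4 of 15 probes on array design 1 and 10 of 16 on array design 2 passed as higher. Each mean lies below those of the Ccng1 probes, as the choice of Ccng1 implies.

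The measured partners of cyclin G1 were Mdm2, PP2A subunits and Cdk5. On array design 1, 3 of 6 probes passed as higher, against 0.638% of all probes, the 2 Mdm2 probes and Ppp2r5d, a B' subunit of PP2A, at 0.43 ± 0.12 (SD, n = 5, limma adjusted p = 0.0318). Ppp2r5d was above 0 in 5 of 5 replicates and on 18 of 19 arrays. Its call and those of both Mdm2 probes ended without replicate 1, 3 or 5, while without replicate 2 only Mdm2 probe 15 passed. Without the readout that misses 786 values, 3 of the 6 partner probes passed as higher, and so did 781 of all 7680 probes (10.2%). With only probes that have a value on every array, 0 partner probes and 0 of all probes passed. The catalytic subunit Ppp2ca, at 0.15 and 0.14 on its 2 probes, and the scaffold Ppp2r1a, at 0.24, did not pass (limma adjusted p = 0.159, 0.191 and 0.27).

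Of 5 partner probes on array design 2, 1 passed as higher and 1 as lower, against 19.8% and 8.07% of all probes, so these counts are near the shares of all probes. Ppp2r1b, a scaffold subunit, averaged 0.20 ± 0.13 (limma adjusted p = 0.0147; −0.23 without centring) and Ppp2r5e, a B' subunit, −0.17 ± 0.12 (0.0328), each SD with n = 5. Neither call held without replicate 1, and that of Ppp2r5e ended also without replicate 2, 3 or 5. The B' subunit Ppp2r5c had 0.15 ± 0.19 and 0.09 ± 0.05 on its 2 probes and Cdk5, a kinase reported to associate with cyclin G1, 0.06 ± 0.18, with limma adjusted p of 0.0736, 0.178 and 0.453. Trp53, Ccng2 and Gak had no tested probe that maps to their symbol alone on either design.

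Other cyclins showed smaller ratios than cyclin G1, as its choice for the largest ratios implies. Of 11 probes of 10 other cyclin genes on array design 1, 0 passed by limma, with 3 at an unadjusted p under 0.05, as had 33% of all probes (2534 of 7680). The smallest p belonged to Ccnf probe 6546, at 0.30 ± 0.14, and Ccnd3, at 0.22 ± 0.10 (SD, n = 5 each, limma adjusted p = 0.0516 for both). Ccnf probe 6546 changed sign with the orientation. It averaged 0.90 with channel 1 only and −0.30 with channel 2 only, and was above 0 on 13 of 20 arrays. Ccnf probe 6468 averaged 0.12 ± 0.27 (SD, n = 5, limma adjusted p = 0.404). Without the readout that misses 786 values, 2 of the 11 probes passed as higher, among them Ccnd3 (limma adjusted p = 0.0266), beside 10.2% of all probes. With the replicate block, plain readouts only or channel 1 only, 1 passed as higher, beside 8.05%, 5.73% and 15.9% of all probes. Without centring 4 passed as lower. Of 15 probes of 10 genes on array design 2, 6 passed as higher, against 19.8% of all probes. They were 3 probes of Ccnd2 at 0.24 ± 0.09, 0.27 ± 0.18 and 0.16 ± 0.15, and Ccnd3 at 0.18 ± 0.14, Ccna2 at 0.16 ± 0.11 and Ccni at 0.15 ± 0.07. Ccnd2 probes 199 and 556, at 0.17 and 0.13, and Ccna2 probe 1393, at 0.14, did not pass (limma adjusted p = 0.0505, 0.101 and 0.0526). Ccnd2 and Ccnd3 are D-type cyclins of G1 phase, Ccna2 the cyclin of S and G2 phase, and Ccni a relative of cyclin G1. The median over the cyclin genes was 0.095 on array design 1 and 0.11 on array design 2. All 6 calls turned negative without centring, with values from −0.28 to −0.16. The count was 3 with the replicate block, which ended the calls of Ccnd3 (limma adjusted p = 0.0959), Ccnd2 probe 3627 (0.0507) and Ccni (0.108). It was 2 without replicate 1 or without replicate 4 and with scaled arrays, 3 with plain or with B readouts only, and 0 with channel 2 only or series 3000 only.

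Markers of single cell types were measured for few genes. Of 6 erythroid probes on array design 2, 5 passed as higher, against 19.8% of all probes, the 4 probes of the embryonic globin Hbb-y at 0.58 to 0.63 and Hba-x at 0.58, while Alas2, the first enzyme of heme synthesis in red cells, averaged −0.0018. With treated embryos in channel 2 only Hba-x averaged 1.16 and Hbb-y 0.73 to 0.88, and 2 of the 4 Hbb-y probes did not pass (limma adjusted p = 0.0588 and 0.0921). With channel 1 only Hba-x averaged 0.0012 (0.998) and Hbb-y 0.38 to 0.43 (0.264 to 0.315), and none of the 5 passed. Without centring none of the 5 passed either, with Hbb-y at 0.15 to 0.20 (limma adjusted p = 0.0631 to 0.158) and Hba-x at 0.15 (0.171). Of 7 marker probes on array design 1, of erythroid, visceral endoderm, placental and neural cells, 0 passed by limma, with 3 at an unadjusted p under 0.05 beside the 33% of all probes, and their means ran from −0.26 (Prl8a2) to 0.36 (Tubb3). The part of these cell types in the Ccng1 ratio was not tested.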

How the data were processed

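The values are log2 ratios deposited by the authors, 1 column per array. Their base, numerator, scanner, background correction and normalization are not stated in the labels or file headers, so folds assume base 2. Array medians of the deposited ratios lay between −1.73 and 1.69, so no centring had been done. The number of arrays limits the precision.

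Groups, replicates, orientations, readouts and slide series came from the labels. All value columns were used. Probes were named through the platform annotation. It gave 4749 probes with 1 symbol, 227 with several and 2704 with none on array design 1, and 4855, 274 and 2470 on array design 2. Gene identifiers of 4712 and 4804 probes were found in the GRCm38.p6 gene table, with 0 symbols changed. Promoters came from RefSeq.

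Each array was centred on its median, arrays with treated embryos in channel 2 were turned, and readouts were averaged. The mean of both orientations gave 1 value per replicate, and the unturned mean gave the dye part. limma 3.58.1 in R 4.3.3 tested all probes with values in at least 3 replicates, two-sided, per design, with p-values adjusted after Benjamini and Hochberg over all probes of a design, called at 0.05. The fits were also run on simulated data with independent noise and known shifts. That simulation held no dye effect and no readout with missing values, so it does not cover these features of the arrays.

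Ccng1, the gene lists and the tests were chosen with earlier results of these data known. From a list, up to 8 passing members per design are named in order of p. Where 0 passed, 2 are named in that order. Also named are Mdm2, Trp53, Ccng2, Ppp2r5 genes, Gak and Cdk5 where measured. Btg2, Tigar, Ppp2ca, Ppp2r1a, the marker genes and the Abhd4 probe on array design 1 were named after their values were seen. So were Sesn1, Ccnf probe 6468, Ccnd2 probes 199 and 556 and Ccna2 probe 1393. Figures were drawn with matplotlib 3.10.9.

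Alternatives changed the centring, scaling, missing values, readouts, orientations, averaging, slide series, variance prior and replicates, or used single arrays with the replicate number as a block.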

Additional observations from a re-analysis of the deposited data

Results flagged for a closer look

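Of 53 groups of replicate values tested for a single sample far from the others, 4 had one, and chance gives about 1 in 20. For Ccng1 probe 4304 the difference B minus plain was 0.25 in replicate 1, above the other 3 replicates, the nearest of which was −0.11. On array design 2, Abhd4 was 0.27 in replicate 2, below the nearest other value of 0.62. Ddias was 0.15 in replicate 2, below the nearest other value of 0.71. Ccni was 0.27 in replicate 5, above the nearest other value of 0.14.

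The ratio of Ccng1 probe 5943 differed between the dye orientations, with a dye part of −0.55 (limma adjusted p = 0.0181), below 0 in 5 of 5 replicates.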

How the results depend on the processing

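All Ccng1 means stayed above 0 under each alternative that gave a value. They moved by more than the SD between replicates with channel 2 only (3.44 for probe 5943, 2.76 for probe 4304), channel 1 only (2.35 and 2.05), scaling of arrays (2.74 for probe 4304) and no centring (0.96 for probe 6776). Large moves within the SD were 3.34 for probe 5943 with scaled arrays, and 0.99 with B and 1.78 with plain readouts for probe 6776. Leaving out a replicate gave 2.79 to 3.08 for probe 5943, 2.33 to 2.54 for probe 4304, 1.23 to 1.47 for probe 6776, and 0.41 to 0.56 for the probe difference. Restricting to probes with a value on every array left no value for Ccng1 on array design 1.

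The dye part of probe 5943 was −0.81 without centring (limma adjusted p = 0.19) and −0.52 with plain readouts (0.0585), and −0.63 to −0.43 when a replicate was left out. That of probe 4304 was −0.86 with scaled arrays (0.000734), and −0.47 to −0.25 when a replicate was left out, passing without replicate 5 (0.0365). The series difference of probe 5943 was 1.56 with scaled arrays (0.031), and that of probe 6776 was 0.14 to 0.83 when a replicate was left out, passing without replicate 4 (0.0159). The readout difference of probe 6776 had limma adjusted p from 0.0719 to 1.

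The count of passing probes moved most. On array design 1 the 50 (49 higher, 1 lower) became 2324 with channel 1 only, 1108 with channel 2 only, 869 with single arrays and the replicate block, 3 with series 3000 only, 25 with series as a term, 4615 without centring (19 higher, 4596 lower), 345 with scaled arrays, 0 with complete probes only, 501 with plain and 3 with B readouts, 286 with medians, 1224 without the readout that misses 786 values (781 higher, 443 lower), and 7 to 82 when a replicate was left out. On array design 2 the 2114 (1501 higher, 613 lower) became 1190 and 117 with channel 1 and channel 2 only, 811 with series 3000 only, 6655 without centring (21 higher, 6634 lower), 1330 with scaled arrays (1150 higher, 180 lower), 1076 with plain readouts, and 1013 to 2637 when a replicate was left out. The replicate block gave 2239 there, and Ccng1 means of 2.86, 2.39 and 1.39.

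Among named genes of array design 2 these turned sign without centring: Ccnd2 (−0.18, −0.16 and −0.27), Ccnd3 (−0.25), Ccna2 (−0.27), Ccni (−0.28), Ppp2r1b (−0.23), Ppm1d (−0.085), Aen (−0.11), Ercc5 (−0.074), Pidd1 (−0.18), Ppp2r5c (−0.28 and −0.34) and Cdk5 (−0.37). With channel 1 only Ccni turned (−0.17), and with channel 2 only Ccnd2 probe 5966 (−0.070), Ccnd3 (−0.28) and Pidd1 (−0.45). Beyond the shift that centring removes, the causes were not tested.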
